A study of Arabidopsis thaliana with 9 samples.

Results

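The comparison described here is that of Arabidopsis thaliana leaves lacking the catalase CAT2 and the NADPH oxidase RBOHD with leaves lacking CAT2 alone. It was made on 6 of the 9 arrays of the series, chosen by their titles: the 3 of cat2 (titled cat2-2) and the 3 of cat2 rbohD (titled cat2-2 atrbohD). The other 3 arrays, of cat2 rbohF (titled cat2-2 atrbohF), entered the estimate of the spread and are given beside some values. All plants were 3 weeks old, in the Columbia-0 ecotype, and carried the cat2 mutation. They were grown in air at 200 µmol m-2 s-1 with 16 h of light and 8 h of dark at 65% humidity. Each array held leaf RNA pooled from 8 or more plants, and the 3 arrays of a genotype were separate biological replicates. No array of wild-type or single rbohD plants was analysed here, so each difference is that of losing RBOHD where CAT2 is already missing.

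CAT2 is the main leaf catalase and removes the hydrogen peroxide that photorespiration makes in peroxisomes, and light-grown cat2 plants therefore meet peroxide stress that starts within the cell. RBOHD is a plasma membrane enzyme that passes electrons from cytosolic NADPH to oxygen outside the cell and makes superoxide there, which turns into hydrogen peroxide. It is known in leaves for the oxidative burst that follows recognition of microbes and for signals that spread from cell to cell. Extracellular peroxide is also used by cell wall peroxidases, which couple monolignols into lignin. The comparison asks which transcripts of cat2 leaves depend on this oxidase.

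The RBOHD transcript was the first check of the labels. The probe annotation used here does not list its probe set, which is called RBOHD because the comparison was defined with it. Its log2 level was 9.64, 9.47 and 9.64 in cat2 replicates 1, 2 and 3, and 4.43, 4.38 and 4.50 in the cat2 rbohD replicates. In cat2 rbohF it was 8.85, 9.02 and 8.97. All 3 cat2 rbohD arrays were thus low and close together, with a gap of 4.97 between the genotypes. The log2 fold change was -5.15 ± 0.08 (SE, n = 3 arrays per genotype), with a limma adjusted p of 9.17e-10. The cat2 rbohD level lay below 5.14, the 40th percentile of all values, where signal and background are hard to separate, so the size of the fall is uncertain. No probe set was named as CAT2 or RBOHF, and the loss of CAT2 that all 9 arrays share was not checked. The 3 measured members of the NADPH oxidase list, AT1G19230, AT4G25090 and AT4G11230, were dim in both genotypes, between 3.27 and 3.67, and none passed the test.

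The cat2 rbohD arrays differed among themselves more than those of the other genotypes. The mean variance over probe sets was 0.0374 in cat2 rbohD, 0.0229 in cat2 and 0.0183 in cat2 rbohF. By pairs of cat2 rbohD arrays it was 0.0293 for replicates 1 and 2, 0.0360 for 2 and 3, and 0.0470 for 1 and 3. The SD exceeded 0.5 at 505 probe sets in cat2 rbohD (2.22%), against 184 in cat2 (0.809%) and 102 in cat2 rbohF (0.448%). Replicate 3 was the array farthest from the others at 311 of the 505, replicate 1 at 160 and replicate 2 at 34. Over all 22746 probe sets the shares were nearly equal, with replicate 3 farthest at 7951, replicate 1 at 7662 and replicate 2 at 7133. In a principal component analysis the leading component (44.6% of the variance) put cat2 rbohD at -10.2, -10.8 and 11.1, between the ranges of cat2 (-26 to -15.7) and cat2 rbohF (15 to 27.1). On the second (14.1%), replicate 1 stood apart at -28.1, with 0.284 and 1.13 for replicates 2 and 3. Leaving out the RBOHD probe set left the mean variances at 0.0374 and 0.0229.

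**Figure D1:**
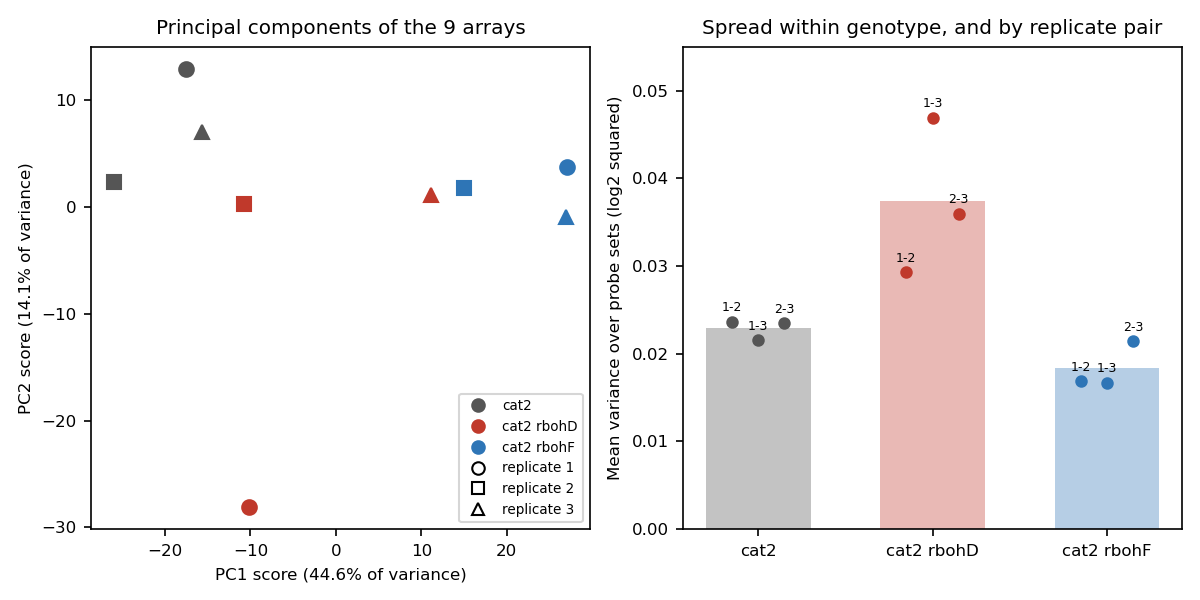
Left, scores of the 9 arrays on the first and second principal components of the log2 values; right, mean variance over 22746 probe sets within each genotype (bars) and for each pair of replicates (points). Replicate 3 of cat2 rbohD scored 11.1 on the first component and replicate 1 scored -28.1 on the second, and the pair of replicates 1 and 3 had a mean variance of 0.0470.

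Of the 10 listed markers of leaf mesophyll, the 3 that were measured were high on all arrays compared. The enzymes of carbon fixation RCA, PRK and SBPASE lay at 14.09 to 14.15, 12.55 to 12.69 and 12.07 to 12.30 on the 6 arrays. The root marker PYK10 read 8.11, 6.96 and 7.78 in cat2 and 8.11, 7.83 and 8.07 in cat2 rbohD. The guard cell regulator FMA was 5.37 to 5.48 in cat2 and 5.11 to 5.27 in cat2 rbohD, and did not pass the test (adjusted p = 0.39). No member of the lists for epidermis, vasculature, flowers, dividing cells or trichomes was measured by a probe set of 1 gene. The 3′ minus 5′ difference of the GAPDH control, a sign of RNA integrity, was 0.69 to 0.79 in cat2 and 0.81 to 0.95 in cat2 rbohD. For Actin (2.46 to 2.80 and 2.39 to 2.73) and Ubq (1.25 to 1.42 and 1.21 to 1.28) the ranges overlapped, and the part of RNA quality in the results was not tested. In bulk leaves, fewer cells of a type and less RNA per cell cannot be told apart.

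Few transcripts passed the test, and nearly all of them were lower without RBOHD. Of 22746 probe sets, 28 were called at an adjusted p under 0.05 (0.123%), 27 lower (0.119%) and 1 higher (0.0044%). Of these, 12 differed at least 2-fold, all lower. Without the RBOHD probe set, 27 of 22745 were called (0.119%), 11 of them at least 2-fold, and no probe set was called in addition. At the 28 called probe sets the 3 cat2 rbohD arrays were all on one side of the 3 cat2 arrays, which was so for 2682 probe sets in all (11.8%), 1222 lower (5.37%) and 1460 higher (6.42%). That split moved with the scaling, and centring each array on its median gave 884 lower and 2776 higher. With 3 arrays per genotype, such separation also arises where there is no difference, so these counts are a description only. The gap between the genotypes at called probe sets was 0.42 or more, with a median of 0.72. At 8 of the 28, RBOHD among them, the cat2 rbohD mean lay below 5.14, the 40th percentile of all values. The cat2 mean was below it at 3, and the size of the falls at such dim probe sets is uncertain. The array nearest to cat2 was replicate 1 at 8 of the 28, replicate 2 at 11 and replicate 3 at 9. At an unadjusted p under 0.05 there were 2071 probe sets, 1083 lower and 988 higher.

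The number of calls depended on single arrays. Without cat2 rbohD replicate 3 it was 29, of which 21 were among the 28, and without replicate 1 it was 8. Without cat2 replicates 1, 2 and 3 it was 15, 8 and 16. With only the 6 arrays compared in the fit, 15 probe sets were called, of which 12 were among the 28.

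**Figure D2:**
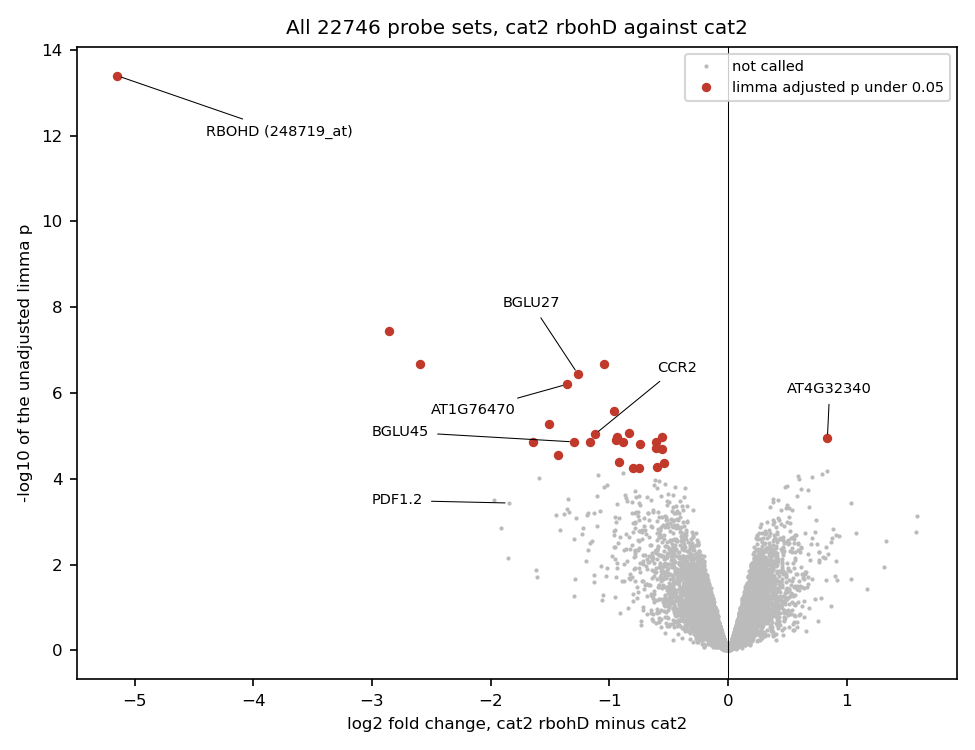
Log2 fold change of cat2 rbohD minus cat2 for all 22746 probe sets (x axis) against the -log10 of the unadjusted limma p (y axis). The 28 called probe sets are in red, 27 of them lower, with RBOHD far to the left at -5.15 and AT4G32340 alone to the right at 0.84.

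The calls least dependent on the settings were RBOHD and 6 others, which kept an adjusted p under 0.05 in every alternative that tested them, including the fits without 1 array. They were 252265_at, 247573_at, 261394_at, 256178_s_at, BGLU27 and AT1G76470. The 2 largest falls after RBOHD had no gene in the annotation used. Probe set 252265_at was 8.97, 8.83 and 8.55 in cat2 and 6.20, 5.89 and 5.68 in cat2 rbohD. It fell by 2.86 ± 0.18 on the log2 scale (adjusted p = 4.00e-04, limma), and no other called probe set apart from RBOHD had a wider gap between the genotypes, 2.35. Probe set 247573_at was 7.57, 7.38 and 6.80 against 4.51, 4.63 and 4.83, a log2 fold change of -2.60 ± 0.20 (limma adjusted p = 0.00123). Its cat2 rbohD level lay below 5.14, so the size of this fall is uncertain. Both probe sets were about as low in cat2 rbohF, at 6.26, 5.87 and 5.64 for 252265_at and 4.67, 4.84 and 4.30 for 247573_at. Since both mutants are set against the same cat2 arrays, these values are given side by side only.

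Smaller but tight differences were seen at 261394_at and 256178_s_at. The level of 261394_at was 7.20, 7.34 and 7.28 in cat2 and 6.22, 6.27 and 6.19 in cat2 rbohD, so that the mutant arrays lay within 0.08 of each other. For 256178_s_at, whose suffix marks probes shared by several transcripts, it was 9.53, 9.53 and 9.71 against 8.70, 8.63 and 8.56. Among genes with a name, BGLU27, of the beta-glucosidase family, was 5.05, 5.32 and 5.22 in cat2 and 4.08, 3.80 and 3.91 in cat2 rbohD. Its log2 fold change was -1.27 ± 0.10 (limma adjusted p = 0.0016). The filters on dim probe sets, which asked for 3 of the 9 arrays above a percentile of all values, left it untested. AT1G76470, a protein-coding locus, was 7.66, 7.32 and 7.48 against 5.94, 6.10 and 6.34, and fell by 1.36 ± 0.12 (limma adjusted p = 0.0024). In cat2 rbohF these loci read 3.69 to 3.95 and 5.09 to 5.26.

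The monolignol and lignan list was the only one of the 21 lists with a measured member that held any call. Of its 25 loci, 5 were measured and 3 of these were called lower, against 0.119% of all probe sets. All 5 had negative log2 fold changes, as had 10381 of all 22746 probe sets. The list median was -0.75, against 0.01 over all probe sets. CCR2, which reduces cinnamoyl-CoA esters on the way to monolignols, was 6.81, 6.83 and 6.60 in cat2 and 5.73, 5.43 and 5.72 in cat2 rbohD. The genotypes were 0.87 apart at their nearest arrays, and the log2 fold change was -1.12 ± 0.13 (limma adjusted p = 0.017). In cat2 rbohF CCR2 read 5.44, 5.35 and 5.80. BGLU45, a beta-glucosidase known to release monolignols from their glucosides, was 6.66, 7.22 and 6.89 against 5.51, 5.79 and 5.57. It fell by 1.30 ± 0.16 (limma adjusted p = 0.017). In cat2 rbohF BGLU45 read 6.35, 6.09 and 6.59, above every cat2 rbohD array and below every cat2 array.

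AT4G39230, the other called member of that list, was 6.97, 6.99 and 6.78 in cat2 and 6.23, 6.35 and 5.92 in cat2 rbohD, and 6, 5.89 and 5.92 in cat2 rbohF. With a log2 fold change of -0.75 ± 0.11 it was, with 256300_at, nearest the threshold of all calls (limma adjusted p = 0.0467). HCT, an acyltransferase of the same pathway, was abundant and did not pass, at 10.42, 10.42 and 10.63 against 10.47, 10.26 and 10.54. BGLU46, the close relative of BGLU45, was 5.14, 5.15 and 5.98 against 4.60, 4.56 and 5.39, so that the genotypes overlapped (adjusted p = 0.59). The list was chosen with earlier results of these data known, and its median moved to -0.07 with the stricter filter on dim probe sets, which left HCT alone. These 3 calls did not hold in every fit without 1 array, though the differences moved little. Across those fits the log2 fold change was -1.19 to -1.02 for CCR2, -1.43 to -1.15 for BGLU45 and -0.838 to -0.626 for AT4G39230. Without cat2 replicate 2, or without cat2 rbohD replicate 1, none of the 3 was called. CCR2 was also lost without cat2 replicate 1, BGLU45 without cat2 replicate 3 or cat2 rbohD replicate 3, and AT4G39230 without any cat2 or cat2 rbohF array. With only the 6 arrays compared in the fit, CCR2 alone of the list was called. AT4G39230 was also lost with quantile normalization again, median centring, an intensity trend or array weights.

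**Figure D3:**
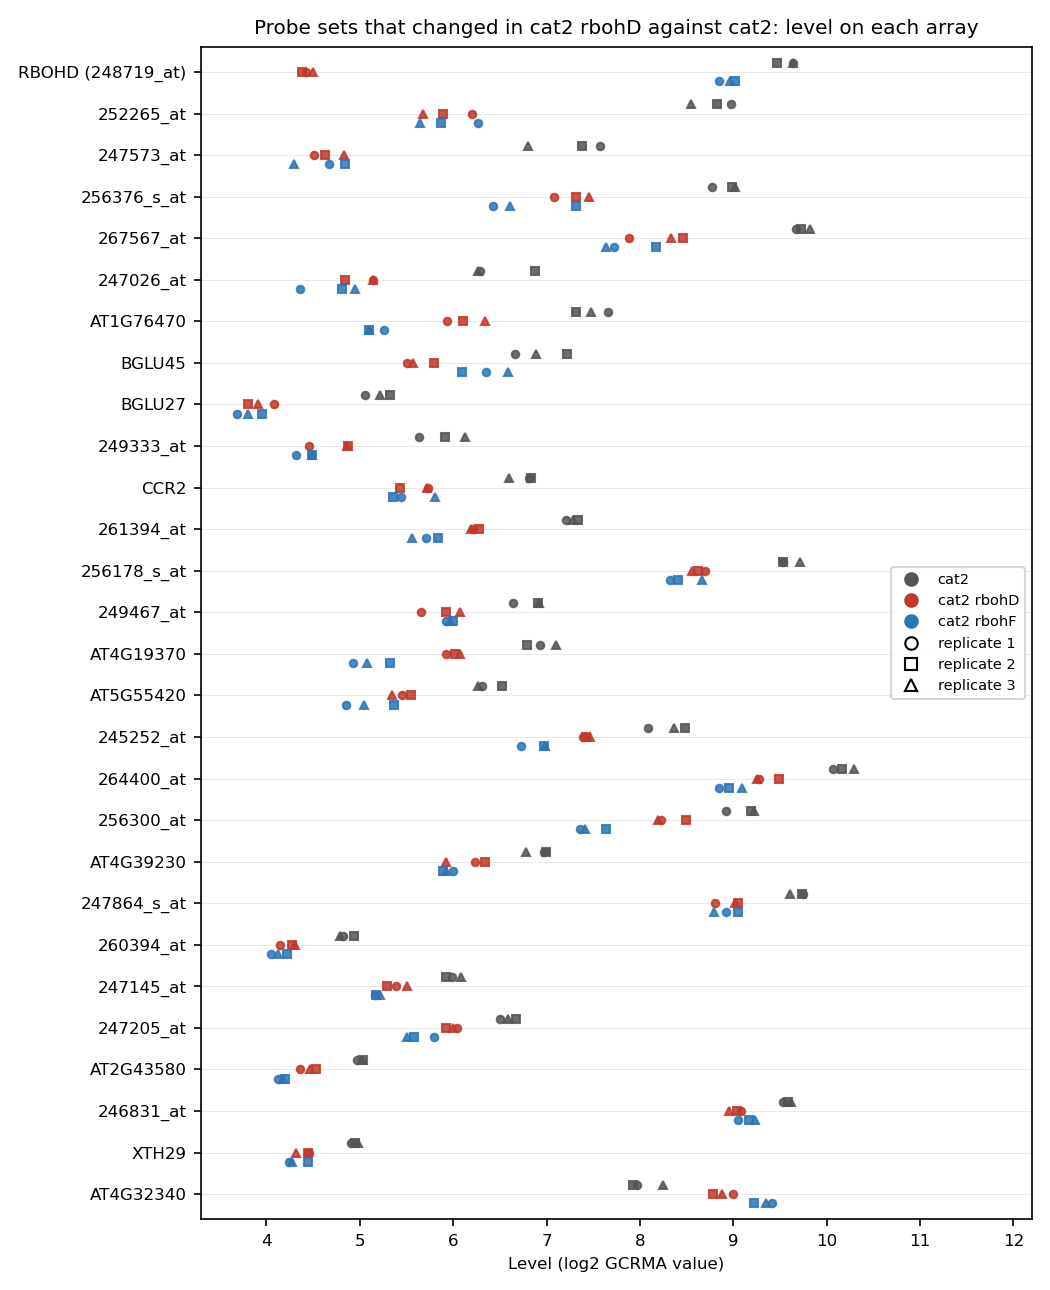
Log2 level on each of the 9 arrays for the 28 called probe sets, ordered by log2 fold change; colour gives the genotype and shape the replicate. At all 28 the cat2 rbohD points lie on one side of the cat2 points, and AT4G32340 at the bottom is the one that was higher.

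The other genes with a name among the calls were of several families. AT4G32340, the only rise, was 7.97, 7.93 and 8.25 in cat2 and 8.99, 8.78 and 8.88 in cat2 rbohD, a log2 fold change of 0.84 ± 0.10 (limma adjusted p = 0.017). In cat2 rbohF it was 9.41, 9.22 and 9.35. The call was lost without cat2 replicate 1 or 2, without cat2 rbohD replicate 1 and with only the 6 arrays compared. AT4G19370 was 6.93, 6.79 and 7.10 against 5.92, 6.02 and 6.07 and fell by 0.94 ± 0.11. In cat2 rbohF it read 4.93, 5.32 and 5.08. AT2G43580 was 4.97, 5.04 and 5.02 against 4.36, 4.53 and 4.46, at the dim end of the array, and 4.13, 4.20 and 4.18 in cat2 rbohF. AT5G55420, which RefSeq holds as a transcribed pseudogene, was 6.31, 6.52 and 6.27 against 5.45, 5.55 and 5.34, and 4.85, 5.37 and 5.04 in cat2 rbohF. Each of these 3 calls was lost without cat2 replicate 1, 2 or 3 and without cat2 rbohD replicate 1.

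XTH29, of the family that cuts and rejoins xyloglucan in cell walls, was 4.90, 4.95 and 4.98 against 4.46, 4.45 and 4.32, and 4.24, 4.44 and 4.27 in cat2 rbohF. It fell by 0.54, the least of the calls, and the call was lost without any cat2 or cat2 rbohD array. Of the families looked at after the data were seen, 2 of 20 BGLU probe sets and 1 of 9 XTH probe sets were called, with family medians of -0.02 and -0.03. None was called among 47 UGT, 26 CYP, 11 GSTU, 9 PUB or 6 WRKY probe sets. Of all probe sets, 0.119% were called lower.

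A further 12 called probe sets are not listed by the annotation, and 256376_s_at matches several genes. All 13 fell. The log2 fold changes were -1.64 for 256376_s_at, -1.51 for 267567_at, -1.43 for 247026_at and -1.16 for 249333_at. The bright 267567_at was 9.67, 9.73 and 9.82 in cat2 and 7.89, 8.46 and 8.34 in cat2 rbohD, with replicate 1 the lowest. The other 9 (249467_at, 245252_at, 264400_at, 256300_at, 247864_s_at, 247145_at, 260394_at, 247205_at and 246831_at) lay between -0.94 and -0.55. At every called probe set the cat2 rbohF mean lay on the same side of the cat2 mean as the cat2 rbohD mean. Both mutants are set against the same cat2 arrays, so this is a description only.

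Of the 284 loci in the 29 lists, 63 were measured by a probe set of 1 gene, and only the 3 above were called, against 0.123% of all probe sets. Among the lists, genes that answer jasmonate gave the largest differences that did not pass. PDF1.2, a plant defensin, was 11.64, 11.67 and 11.83 in cat2 and 9.18, 10.29 and 10.14 in cat2 rbohD, with replicate 1 about 1 unit below the others. The log2 fold change of -1.84 ± 0.34 had an adjusted p of 0.11 in limma, which was 0.0492 without cat2 rbohF replicate 3. PDF1.2b, measured by a probe set whose probes can bind related transcripts, gave -1.92 ± 0.43. The other 2 measured members of the list, THI2.1 and OPCL1, had log2 fold changes of 0.07 and -0.07.

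Class III peroxidases, secreted enzymes that use peroxide in the cell wall, had 3 measured members and a median log2 fold change of -0.62, with none called. Prx37 was 8.48, 8.55 and 9.05 against 7.09, 7.70 and 7.96, without overlap (adjusted p = 0.17). PRX52 was 7.20, 8.03 and 8.44 against 6.96, 7.51 and 7.33, and cat2 alone spanned more than the difference.

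Lists of defence and peroxide response had negative medians, with replicate 3 lowest in several of them. The salicylic acid list (5 measured) had a median of -0.28, and by cat2 rbohD array it lay -0.27, 0.18 and -0.90 from the cat2 mean. WRKY53, a transcription factor known from leaf senescence, was 8.97, 8.71 and 8.47 against 8.45, 7.97 and 7.26 (adjusted p = 0.41). UGT76B1, a glucosyltransferase that acts on salicylic acid and related defence signals, was 9.38, 9.70 and 8.50 against 8.76, 9.37 and 7.69. GRX480, a glutaredoxin gene, gave -0.28 ± 0.10 (adjusted p = 0.42).

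The peroxide response list (5 measured) had a median of -0.50, and by array -0.25, -0.32 and -0.82. Its lowest p was that of UGT73B5, 6.84, 7.29 and 6.63 against 6.02, 6.54 and 5.82 (limma adjusted p = 0.30). With the replicate number as a block UGT73B5 was called (limma adjusted p = 0.00853), though the numbers share no stated source. The mitochondrial NAD(P)H dehydrogenase gene NDB2 was 9.52, 9.60 and 9.35 against 9.38, 9.22 and 8.67. For endoplasmic reticulum folding (2 measured) the array medians were -0.12, -0.10 and -0.58, with ATERDJ3B at 10.31, 10.23 and 10.21 against 9.99, 10.25 and 9.62 and BZIP60 at 9.95, 10.02 and 9.88 against 9.97, 9.75 and 9.43. Of the heat shock list, AT5G48570 was 7.65, 7.93 and 6.43 against 7.14, 7.01 and 5.97, and ATHSP22.0 lay between 4.16 and 4.34 on the 6 arrays.

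Immunity genes tied to pattern recognition (4 measured) had a median of -0.21, and replicate 3 did not stand out there. WRKY6 was 7.81, 8.12 and 7.64 against 7.32, 7.01 and 7.03, a log2 fold change of -0.74 ± 0.14 (adjusted p = 0.12). BIK1, the kinase that phosphorylates RBOHD after pattern recognition, was 8.65, 8.90 and 8.85 against 8.54, 8.54 and 8.58 (adjusted p = 0.42). AT1G26380, of the camalexin and indole list, was 9.21, 9.30 and 8.89 against 8.28, 7.90 and 8.00 (adjusted p = 0.13, and 0.0309 without cat2 rbohF replicate 2).

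Photorespiration, the mesophyll markers, the ascorbate-glutathione cycle and cold response had list medians near 0. Photorespiration (4 measured) had a median log2 fold change of 0.08, the mesophyll markers -0.01 and the ascorbate-glutathione cycle (5 measured) -0.15. The thylakoid ascorbate peroxidase gene TAPX was 9.62, 9.59 and 9.44 against 9.92, 9.78 and 9.72 (adjusted p = 0.31) and was the only one of the 5 with a positive value. The glutathione reductase gene GR1 was 10.54, 10.68 and 10.57 against 10.47, 10.45 and 10.41, without overlap (adjusted p = 0.53), and ATMDAR2, a monodehydroascorbate reductase gene, gave -0.29 ± 0.12 (adjusted p = 0.52). In photorespiration HPR and AT1G80380 gave 0.12 and 0.17. Cold response genes (4 measured) had a median of -0.05, and COR15A was 6.66, 7.18 and 7.06 against 6.53, 6.85 and 6.89, while cat2 rbohF read 8.79, 7.54 and 9.12. COR47 gave 0.20 ± 0.21. GI, the 1 measured clock gene, was 7.24, 7.28 and 7.58 against 7.55 on each mutant array. SAG29, the 1 measured senescence gene, was 5.22, 5.69 and 5.42 against 6, 5.69 and 6.56, a log2 fold change of 0.64 ± 0.42. Neither was called.

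Anthocyanin genes (4 measured) had a median of 0.62 and cat2 arrays that varied widely. The glycosyltransferase gene UF3GT was 5.83, 5.08 and 6.04 against 6.13, 6.48 and 6.24, without overlap (adjusted p = 0.43), and AT4G14090 gave 0.60 ± 0.25. BCAT4, of aliphatic glucosinolate synthesis, was 9.55, 9.58 and 9.98 against 10.64, 10.06 and 10.22 (adjusted p = 0.28), while AT2G31790 of the same list gave 0.08. GH3.3, which conjugates auxin to amino acids, was 8.29, 7.60 and 8.52 against 6.30, 7.18 and 7.27 (adjusted p = 0.18), and its relative WES1 gave -0.19.

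**Figure D4:**
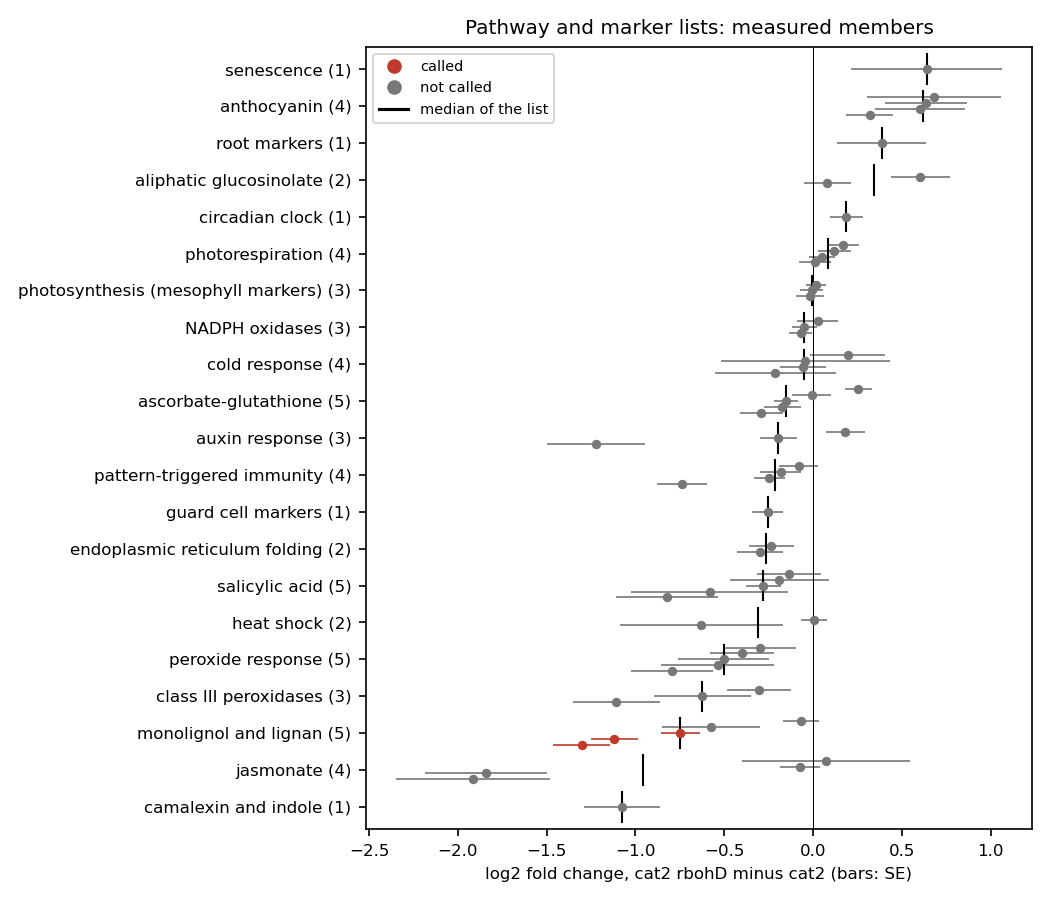
Log2 fold change of cat2 rbohD minus cat2, with its SE, for each measured member of the 21 lists; the number of measured members is in brackets and the black bar is the list's median. Only 3 members of the monolignol and lignan list were called; the median over all probe sets was 0.01.

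Beyond the calls, 1471 of the 13513 probe sets with 1 gene had genotypes that did not overlap, 624 lower and 847 higher, where the share over all probe sets was 11.8%. Closest to the threshold among the 10 with the largest positive values were AT4G30660, 8.55, 8.77 and 8.66 against 9.42, 9.30 and 9.75 (adjusted p = 0.052), and AT2G40960, 6.49, 6.05 and 6.31 against 7.24, 7.10 and 6.88 (adjusted p = 0.058). Both were called under some alternatives. The largest was AT2G44240, 8.92, 8.57 and 10.26 against 10.61, 10.89 and 11.00, where cat2 replicate 3 came close to the mutant. Without that array its difference was 2.09 and passed the test (adjusted p = 0.0105). The plastid-encoded photosystem genes psbK and psbI gave 1.08 ± 0.25 and 0.94 ± 0.23. However, the 69 plastid-encoded probe sets, petL among them at 1.17 ± 0.48, had a median of -0.06. None of the 69 was called, against 0.123% of all probe sets, too small a share to expect a call among so few. Among the 69, cat2 rbohD replicate 1 was the highest of its genotype at 46 and replicate 3 the lowest at 55. Over all 22746 probe sets these counts were 7765 and 6999. The other positive values were 1.32 for AT4G17470, 1.04 for the glycosyl hydrolase gene GH9B13, 0.88 for TBL36 and 0.84 for AT5G66590. AT5G66590 was called without cat2 rbohD replicate 2, at 1.15 (adjusted p = 0.0436).

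The 10 largest negative values without overlap included AT5G62080, where cat2 replicate 3 came close to the mutant: 6.47, 6.81 and 4.16 in cat2 against 3.98, 3.88 and 4.04. Without that array its difference was -2.68 and passed the test (adjusted p = 1.09e-04). AT3G23550 was 10, 9.88 and 9.70 against 8.57, 8.43 and 8.55, steady within both genotypes (adjusted p = 0.11), while cat2 rbohF ran from 7.43 to 8.66. It was called without cat2 rbohF replicate 2 or 3 (adjusted p = 0.0201 and 0.032) and with only the 6 arrays compared (adjusted p = 0.00997). AT4G16260 was 10.24, 10.53 and 11.03 against 8.61, 8.95 and 9.88, and without cat2 rbohD replicate 3 its difference was -1.82 and passed (adjusted p = 0.024). AT2G43590 was 7.83, 8.6 and 8.12 against 6.18, 7.62 and 6.51, and without cat2 rbohD replicate 2 it was -1.84 and passed (adjusted p = 0.0239). B120 and AT2G23270 gave -1.38 ± 0.28 and -1.34 ± 0.27. BSMT1, a methyltransferase gene for salicylic and benzoic acid, ran from 5.17 to 7.07 in cat2 against 4.69 to 5.11.

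Behind the spread of the cat2 rbohD arrays were sets of probe sets at which replicate 3 or replicate 1 stood alone. These sets were picked by their spread and are described with no test. Set against the cat2 mean, replicate 1 differed at least 2-fold at 148 probe sets (125 lower, 23 higher), replicate 2 at 61 (58 and 3) and replicate 3 at 315 (160 and 155). Replicate 3 was at least 1 log2 unit above both other replicates at 89 probe sets, of which 82 were above every cat2 and cat2 rbohF array as well. Replicate 1 was the lowest of its genotype at 70 of the 89, where replicate 3 could not be the lowest by the choice of the set. Over all 22746 probe sets, where any of the 3 could be, replicate 1 was the lowest at 6659 and replicate 2 at 8121. None of the 89 was called, against 0.123% of all probe sets, and a gap this wide within a genotype makes a call unlikely. Single cat2 arrays were at least 1 log2 unit above both others at 14, 6 and 7 probe sets.

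Genes in which replicate 3 stood high included AT5G33370, at 4.37, 7.64 and 9.14 in cat2 rbohD replicates 1, 2 and 3 and 8.28, 6.53 and 6.93 in cat2. The others were AT1G06100, AT1G12570, AT3G61840, AT4G16750, AT5G12420 and GLC, with replicate 3 between 6.86 and 8.70, and TBL38. TBL38, of a family that acetylates cell wall polysaccharides, was 5.45, 5.97 and 7.48 against 6.19, 6.12 and 5.98. The mean difference of AT5G33370 was -0.20, and left-out arrays moved it between -1.25 and 1.14.

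Replicate 3 was at least 1 log2 unit below both other replicates at 33 probe sets, all 33 of them below every cat2 array. At these the medians from the cat2 mean were -0.02, -0.04 and -1.26 in cat2 rbohD replicates 1, 2 and 3, and -1.41, -1.04 and -1.33 in cat2 rbohF. SAL2, a phosphatase gene related to SAL1, was 9.12, 9.08 and 7.91 in cat2 rbohD, 9.09, 8.45 and 8.52 in cat2 and 7.01, 7.59 and 6.88 in cat2 rbohF. UGT76B1 was another of these genes. AT3G01830, AT3G48640, AT4G14020, ATSBT5.2 and AT5G14940 had replicate 3 between 6.22 and 7.56, and replicates 1 and 2 between 7.27 and 9.16. AT2G29500 was 7.98, 7.44 and 5.69 against 7.58, 7.87 and 6.60. Replicate 1 in turn was at least 1 unit below both others at 61 probe sets, 60 of them below every cat2 and cat2 rbohF array. Single cat2 arrays were that far below both others at 3, 18 and 19 probe sets.

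**Figure D5:**
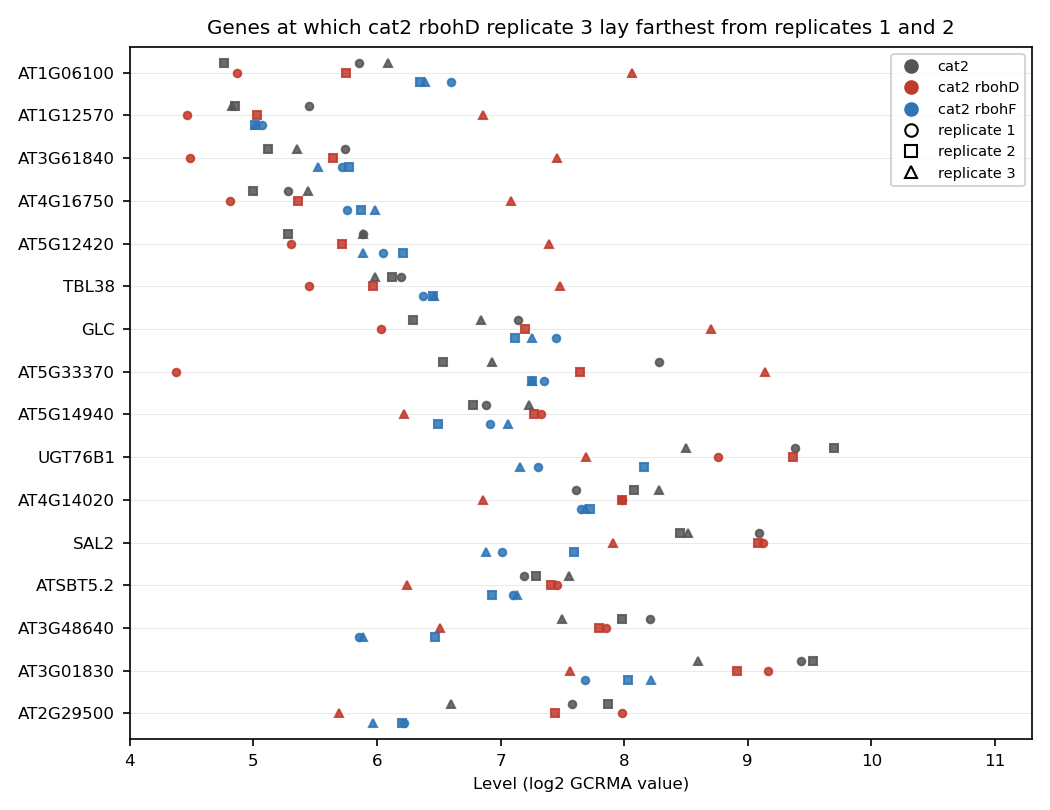
Log2 level on each of the 9 arrays for the 16 genes at which cat2 rbohD replicate 3 lay farthest above (upper 8) or below (lower 8) its nearer other replicate. The red triangles are replicate 3; at AT5G33370 the cat2 rbohD arrays read 4.37, 7.64 and 9.14.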

How the data were processed

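RNA from leaves was measured on 9 Affymetrix arrays, 3 for each of cat2, cat2 rbohD and cat2 rbohF. The table deposited by the authors holds log2 values from GCRMA, as named in the submitters' processing notes, with no version stated there. GCRMA corrects background and normalizes arrays to each other, which hides any shift common to most transcripts. Low values are compressed, and no detection call was used. Of 22810 probe sets, 64 controls were left out and 22746 tested without a filter on dim signals.

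Groups were taken from the sample titles. One mean per genotype was fitted to all 9 arrays by lmFit and eBayes of limma 3.58.1 (R 4.3.3) without a trend. The 2-sided p-values were adjusted by Benjamini-Hochberg over all probe sets, with calls at an adjusted p under 0.05. The spread is thus shared by the genotypes, although it differed between them. The script was tested on simulated data. Arrays have no read depth; their number limits the precision, and the median SE of a log2 fold change was 0.09.

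The platform annotation gave 1 gene for 13513 probe sets, several for 503 and none for 8730 that it does not list. Symbols came from RefSeq (TAIR10.1) for the 13436 that matched. RBOHD was read from 248719_at, the probe set with which the comparison was defined. A probe set that is not listed is unnamed here, not without a gene. No sequences or coordinates were used.

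The comparison, the lists (29, with 284 loci) and the rules were chosen with earlier results of these data known. Named are RBOHD, every called probe set, the 10 largest differences each way among uncalled 1-gene probe sets without overlap, up to 4 called members of a list or the 2 with the smallest p, and the 8 genes each way at which cat2 rbohD replicate 3 lay farthest out. Further list members are given as values. Families by symbol and plastid-encoded genes were added after the data were seen. Alternatives were 2 filters, quantile normalization again, median centring, an intensity trend, robust eBayes, array weights, weights per genotype, only the 6 arrays compared, a replicate block, the table without 248719_at, and each array left out.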

Additional observations from a re-analysis of the deposited data

How the results depend on the processing

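The 28 calls became 29 with the filter at the 40th percentile, which left 4 of them untested, and 12 with the filter at the 60th, which left 15 untested, 6 of the 12 at least 2-fold. The stricter filter gave 1318 probe sets without overlap and no call in the lists. Other settings gave 25 calls (quantile normalization again, and median centring), 31 (intensity trend), 30 (robust eBayes), 22 (array weights), 23 (genotype weights) and 15 (only the 6 arrays compared, with 1 call in the lists). Leaving out 1 array gave 8 to 39 calls, 6 to 18 of at least 2-fold and 0 to 3 in the lists; the cause was not tested. At both filters the mean variance was higher, 0.0285 and 0.0266 in cat2 and 0.0502 and 0.0487 in cat2 rbohD, and in cat2 rbohF it was 0.0212 at the first; dim probe sets, which vary less, were left out. With the replicate number as a block there were 61 calls, 21 of them at least 2-fold, and 27 of the 28 were among them. The block also brought calls at UGT73B5 (adjusted p = 0.00853), TBL36 (0.0177), AT4G16260 (0.0439), AT4G30660 (0.0439) and AT2G40960 (0.0462). The numbers share no stated source: residuals of same-numbered cat2 and cat2 rbohD arrays correlated at -0.206, 0.0101 and 0.142, and of the cat2 rbohD arrays only replicate 3 correlated best with its own number.

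No called probe set changed direction. Signs turned only at genes not called. With quantile normalization again the log2 fold change was 0.0102 for SBPASE, -0.0212 for ATHSP22.0, 0.00443 for AT5G14940 and 0 for RCA; with median centring it was 0.00935 for SBPASE and 0.00661 for AT5G14940, and with array weights 0.0214 for AT5G14940. Leaving out 1 array gave -0.00286 to 0.0275 for RCA, -0.0739 to 0.0398 for SBPASE, -0.0398 to 0.345 for COR47, -0.0361 to 0.0547 for ATHSP22.0, -0.787 to 0.356 for AT2G29500 and -0.518 to 0.0903 for ATSBT5.2. It gave -0.196 to 0.409 for SAL2, -0.218 to 0.339 for AT5G14940, -0.256 to 1.34 for AT1G06100, -0.300 to 0.903 for AT1G12570, -0.338 to 1.15 for AT3G61840 and -0.155 to 0.982 for AT4G16750. It gave -0.173 to 0.870 for AT5G12420, -0.386 to 0.630 for TBL38, -0.147 to 1.19 for GLC and -1.25 to 1.14 for AT5G33370.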
